A study of Oryza sativa with 36 samples.

Results

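The core genes induced late were the rice genes whose transcripts were higher in leaf sheaths at the late stage of brown planthopper (BPH) feeding than before infestation, in every line of the study. A gene was a member when, in each of the 4 lines, the mean of its 3 late libraries was 5 CPM or more and at least 4 times the sum of its stage 0 mean and 0.1 CPM. CPM is the count of a gene scaled to the total count of its library (counts per 1000000) and is not corrected for gene length, so the order of 2 genes in CPM is an order of counts. This rule gave 164 members among the 38978 genes of the table, or among the 16390 genes that were at 5 CPM or more in every late group. The members were thus chosen by the late and stage 0 levels of 24 libraries, so late levels against stage 0 are given as a description, with no test. Early libraries were not used by the rule.

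The lines were 3 near-isogenic lines (NILs) and their recurrent parent (RP). B14 carries the resistance gene BPH14, B15 carries BPH15 and B1415 carries both, and all of them were bred in 'Wushansimiao', the indica cultivar that is RP. Each line was sampled without infestation (stage 0), at an early stage that pooled leaf sheaths after 3, 6 and 12 h of feeding, and at a late stage that pooled 24, 48 and 72 h, with 3 libraries for each of the 12 groups. A replicate held 15 seedlings, and infested seedlings received 8 third-instar nymphs each at the four-leaf stage. Each resistance gene was represented by 1 line, so that an effect of the gene and of other differences of that line from RP cannot be told apart, and the hours within a stage cannot be separated. In these bulk tissue samples, fewer cells of a type and less RNA per cell cannot be told apart either.

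BPH is a sap-sucking insect that places its stylets in the phloem of the leaf sheath, and BPH14 and BPH15 are loci that make rice plants less suitable for it. Plants that are wounded or fed upon commonly accumulate defence proteins, among them inhibitors of the digestive proteases of insects, lectins that bind sugars, and beta-glucanases of the pathogenesis-related class. Bowman-Birk inhibitors are small proteins rich in disulfide bonds that block trypsin-like and chymotrypsin-like proteases, and in rice their genes occur side by side on chromosome 1. Of the 164 members, 18 had a name or description in the study's gene tables, which describe 1581 genes, and the other 146 are given by locus identifier only. Those tables list genes that the study called different between lines or feeding stages in the same libraries. How many members carry a given description is therefore not independent evidence of what kinds of gene responded. Nor is the number of annotated members called between a NIL and RP independent of that choice.

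Total counts ranged from 10601967 to 18692187 per library, with a median of 15884382. The one annotated photosynthesis gene, Os03g0592500 (a chlorophyll a-b binding protein), had means of 156 to 649 CPM in the 12 groups, and no annotated gene marked the leaf sheath itself. In 29 of 36 libraries the library with the most similar expression came from the same group. Under the label B15_late-3 stands a library whose nearest match was B1415_late-2, with a Spearman correlation of 0.991 across genes. The nearest match of B1415_late-3 was B15_late-1, at 0.990. These matches ran in both directions, which accounts for 4 of the 7 exceptions. The others were B14_early-3 and B15_early-1, each other's nearest match at 0.988, and B14_0-3, whose nearest match was B14_early-2 at 0.971. B15_late-3 and B1415_late-3 stand apart from their groups in most members, and summaries over members that use the late stage of B15 or B1415 are given with and without them.

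In all lines the members made up a small share of the counts before infestation and a larger share at each later stage. The share averaged 0.318%, 1.03% and 3.65% of all counts at stage 0, the early stage and the late stage in B14. It averaged 0.364%, 1.04% and 2.48% in B15, 0.246%, 0.949% and 2.15% in B1415, and 0.270%, 1.20% and 2.55% in RP. At the late stage the 3 libraries had 3.73%, 3.43% and 3.79% in B14, 3.00%, 2.84% and 1.58% in B15, 1.42%, 1.64% and 3.39% in B1415, and 2.81%, 2.31% and 2.54% in RP. All B14 libraries were above all RP libraries, whereas replicate 3 was the lowest of B15_late and the highest of B1415_late. This order of replicate 3 in both groups was found in 141 of 164 members (86.0%) and in 18.7% of the 16390 genes at 5 CPM or more in every late group. The opposite order, with B15_late-3 highest and B1415_late-3 lowest, was found in 6 members (3.66%) and in 33.8% of the 16390 genes. Without replicate 3 the share averaged 2.92% in B15_late and 1.53% in B1415_late. When both libraries were left out, the rule gave 118 genes, and 114 of the 164 members passed it.

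**Figure D1:**
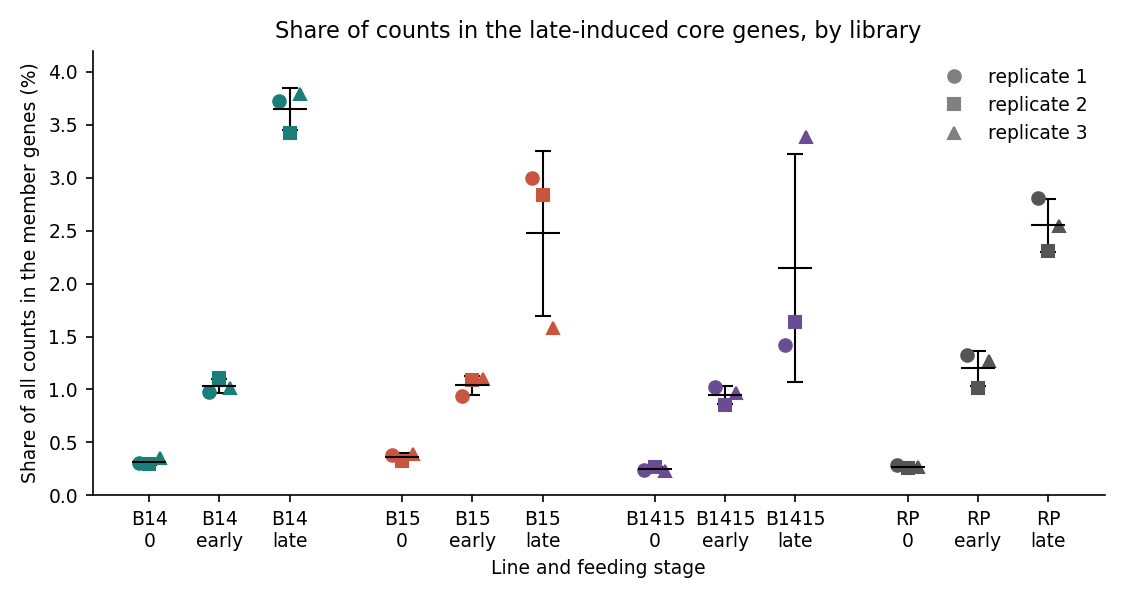
Share of all counts (%) that fell on the 164 late-induced core genes, by line and feeding stage. Each point is a library, its shape gives the replicate number, and the bars are the mean and SD of 3 libraries. The late libraries of B14 lie between 3.43% and 3.79%, above the 2.31% to 2.81% of RP_late, and replicate 3 lies apart from replicates 1 and 2 in B15_late (1.58%) and B1415_late (3.39%).

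The members were mostly of moderate level. Averaged over the 4 lines, 45 of them were at 100 CPM or more at the late stage, 108 were at 10 to 100 CPM and 11 were below 10 CPM, with a median of 43.3 CPM (42.7 CPM without B15_late-3 and B1415_late-3, with the same 3 counts). The lowest of the 12 late libraries was above the highest of the 12 stage 0 libraries in 157 members, with or without those 2 libraries. The rule favours this order, so nothing is read from this count. The median ratio of the late mean to the stage 0 mean plus 0.1 CPM was 10.6 in B14, 8.52 in B15, 8.02 in B1415 and 9.03 in RP, beside 1.07, 1.25, 1.01 and 0.961 over all genes at 5 CPM or more late. Without B15_late-3 and B1415_late-3 it was 10.0 in B15 and 5.31 in B1415. With all libraries the ratio was largest in B14 for 67 members, in B15 for 39, in B1415 for 19 and in RP for 39, and without those 2 libraries for 62, 54, 11 and 37. In B14 alone, the late and stage 0 libraries lie on different sides of the library division described at the end. The part of that division in the B14 ratios was not tested. Every member had at least 1 count at stage 0 in some library. Members nearest inside the threshold were Os01g0660200 with a smallest ratio of 4.03 (in B1415), Os07g0209201 with 4.03 (in B15) and Os04g0674700 with 4.04 (in B1415). Just outside it were Os06g0498800 with 3.999, Os03g0183200 with 3.98 and Os04g0444300 with 3.97, all in B15. Without B15_late-3 and B1415_late-3 the smallest ratio was 3.11, 2.52 and 2.96 for the first 3 genes and 3.34, 3.67 and 4.89 for the other 3.

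The member with the highest late CPM was Os01g0256500, described in the study's tables as similar to ZnI. At the late stage it had 6272, 4620 and 5649 CPM in B14, 4711, 6368 and 2890 CPM in B15, 2242, 3066 and 6485 CPM in B1415, and 4559, 4449 and 3718 CPM in RP. Its stage 0 levels were 428, 414 and 716 CPM in B14, 1073, 739 and 1107 CPM in B15, 382, 558 and 349 CPM in B1415, and 393, 322 and 319 CPM in RP, so that all B15_0 libraries were above all RP_0 libraries. The next in order of mean late CPM, not corrected for length, were Os03g0244200 (1758 CPM), Os05g0355400 (1315 CPM), Os01g0124650 (957 CPM), Os11g0165700 (917 CPM), Os02g0465900 (889 CPM), Os04g0659300 (878 CPM), Os07g0209100 (760 CPM), Os01g0348900 (738 CPM) and Os04g0679400 (726 CPM). Os11g0165700 is one of the 6 members with the opposite order of replicate 3.

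Several members were close to undetected before infestation. OsEnS-58 (Os03g0826900) was at 24.9 to 224 CPM in the late libraries and at 0 to 0.239 CPM in the stage 0 libraries, and Os02g0218700 was at 0.450 to 18.8 CPM late and at 0 to 0.392 CPM at stage 0. Among members with more counts at stage 0, the smallest ratio over the 4 lines was 71.5 for OsEnS-40, 65.7 for Os07g0147550, 35.6 for Os03g0184550, 34.9 for Os07g0529000 and 33.3 for Os11g0126900. It was 27.1 for Os06g0559400, 26.5 for the Bowman-Birk gene RBBI3-2 and 25.6 for Os05g0247800. Without B15_late-3 and B1415_late-3 it was 10.2 for OsEnS-40, 6.30 for Os07g0147550, 9.99 for Os11g0126900 and 10.7 for RBBI3-2, in each case in B1415, whereas Os07g0529000 had 39.3, Os03g0184550 24.3, Os05g0247800 21.4 and Os06g0559400 16.4. Os07g0147550 had 193, 212 and 253 CPM in B14_late, 89.5, 42.1 and 5.16 CPM in B15_late, 3.73, 3.62 and 108 CPM in B1415_late, and 120, 46.9 and 113 CPM in RP_late, beside 0.204 to 0.723 CPM at stage 0. In B15 and B1415 its late mean was thus carried by 2 libraries and by 1 library.

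Os01g0348900 and Os04g0659300 were members of high CPM whose late level was far above the early level in B14 and RP. Os01g0348900 encodes OsJRL, a jacalin-related lectin, one of a family that binds mannose or galactose. OsJRL was at 1093, 1182 and 1514 CPM in B14_late, 1149, 514 and 94.3 CPM in B15_late, 89.8, 104 and 1359 CPM in B1415_late, and 722, 375 and 661 CPM in RP_late. Its early levels of 31.7 to 54.7 CPM overlapped its stage 0 levels of 27.1 to 76.8 CPM. Os04g0659300 had 1427, 1349 and 1557 CPM in B14_late, 1477, 736 and 197 CPM in B15_late, 164, 194 and 1600 CPM in B1415_late, and 765, 423 and 645 CPM in RP_late, beside 59.9 to 114 CPM at the early stage of all lines. In both genes the 2 libraries that stand apart differed from the others of their group more than B14_late differed from RP_late.

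Protease inhibitors held the most members of the gene lists drawn up from descriptions, with 5 among 8 annotated genes. All 5 are Bowman-Birk genes of chromosome 1. Most annotated members, and all 8 annotated inhibitor genes, are loci of chromosome 1. The lead of this list and its place on chromosome 1 therefore cannot be told apart from which loci carry a description. Os01g0124000 (RBBI2-1), Os01g0124100 (RBBI3-2), Os01g0124200 (RBBI3-1) and Os01g0124401 (RBBI3-3) belong to a run in which 6 of 8 consecutive loci were members, together with Os01g0124650 (RBBI2-3 in the study's tables, described there as a hypothetical conserved gene) and Os01g0124700 (hypothetical protein). The fifth, Os01g0127600, is described as similar to the precursor of a Bowman-Birk inhibitor of type D-II and lies outside the run. Near-identical copies within this family may share reads, and the strand setting of the counting is not given in the sources used here, so the split of counts between neighbouring loci is uncertain. RBBI2-1 is the member for which the study lists qRT-PCR primers, shown here because they define the transcript that such an assay reads on chromosome 1. Each has 20 bases, with 55.0% G or C in the forward and 50.0% in the reverse primer.
RBBI2-1 forward: gcgacatggtgaattcgtcg
RBBI2-1 reverse: acacacgcagactgatcgtt

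RBBI2-1 was at 4.97, 6.53 and 10.6 CPM in B14_0, 22.2, 27.4 and 22.3 CPM in B14_early and 49.2, 40.5 and 41.5 CPM in B14_late. In B15 it had 2.60, 2.80 and 2.25 CPM at stage 0, 12.9, 18.2 and 22.0 CPM early and 21.8, 34.1 and 60.5 CPM late. B1415 libraries had 3.46, 5.13 and 3.57 CPM, then 42.6, 35.9 and 41.0 CPM and then 48.7, 65.2 and 27.1 CPM. With 2.08, 2.30 and 1.94 CPM at stage 0, 15.8, 14.4 and 13.8 CPM early and 20.2, 13.8 and 19.4 CPM late, RP had lower levels than B14 at every stage without overlap. At the early stage B1415 was above all other lines. RBBI2-1 also has the opposite order of replicate 3, with B15_late-3 highest and B1415_late-3 lowest.

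RBBI3-1 took the most counts of the member inhibitors, with 472, 435 and 501 CPM in B14_late, 400, 230 and 101 CPM in B15_late, 93, 105 and 376 CPM in B1415_late, and 246, 147 and 210 CPM in RP_late. RBBI3-3 followed the same order, with 143, 141 and 169 CPM in B14_late, 132, 66.3 and 18.3 CPM in B15_late, 17.5, 23.3 and 126 CPM in B1415_late, and 63.5, 40.8 and 55.5 CPM in RP_late. RBBI3-2 had 43.9, 40.5 and 45.4 CPM in B14_late, 47.5, 24.1 and 7.64 CPM in B15_late, 6.23, 8.92 and 53.8 CPM in B1415_late, and 26.3, 16.1 and 24.1 CPM in RP_late. In these 3 genes B14_late did not overlap RP_late, and the same 2 libraries of B15_late and B1415_late stand apart. Os01g0127600 had another time course, since its early levels of 34.9, 34.8 and 28.1 CPM in B14, 29.4, 33.0 and 28.5 CPM in B15, 34.2, 36.9 and 34.2 CPM in B1415, and 13.9, 13.2 and 13.2 CPM in RP were above the mean late level of each line.

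The 3 annotated inhibitor genes that were not members showed what lies beside this group. Os01g0123900 (RBBI2-2), the neighbour before the run, had means of 53.4, 168 and 166 CPM at stage 0, early and late in B14, 47.6, 182 and 171 CPM in B15, 43.5, 206 and 192 CPM in B1415, and 35.4, 115 and 110 CPM in RP. It reached 4 times stage 0 late in B1415 and not in the other lines. Os01g0132000 is described as similar to the wound-induced protease inhibitor WIP1. It had means of 223, 551 and 488 CPM in B14 and 186, 391 and 353 CPM in RP. Os01g0131900 was at a very low level in all groups. With all libraries, none of the 3 was called in a comparison of a NIL with RP in which it could be tested.

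**Figure D2:**
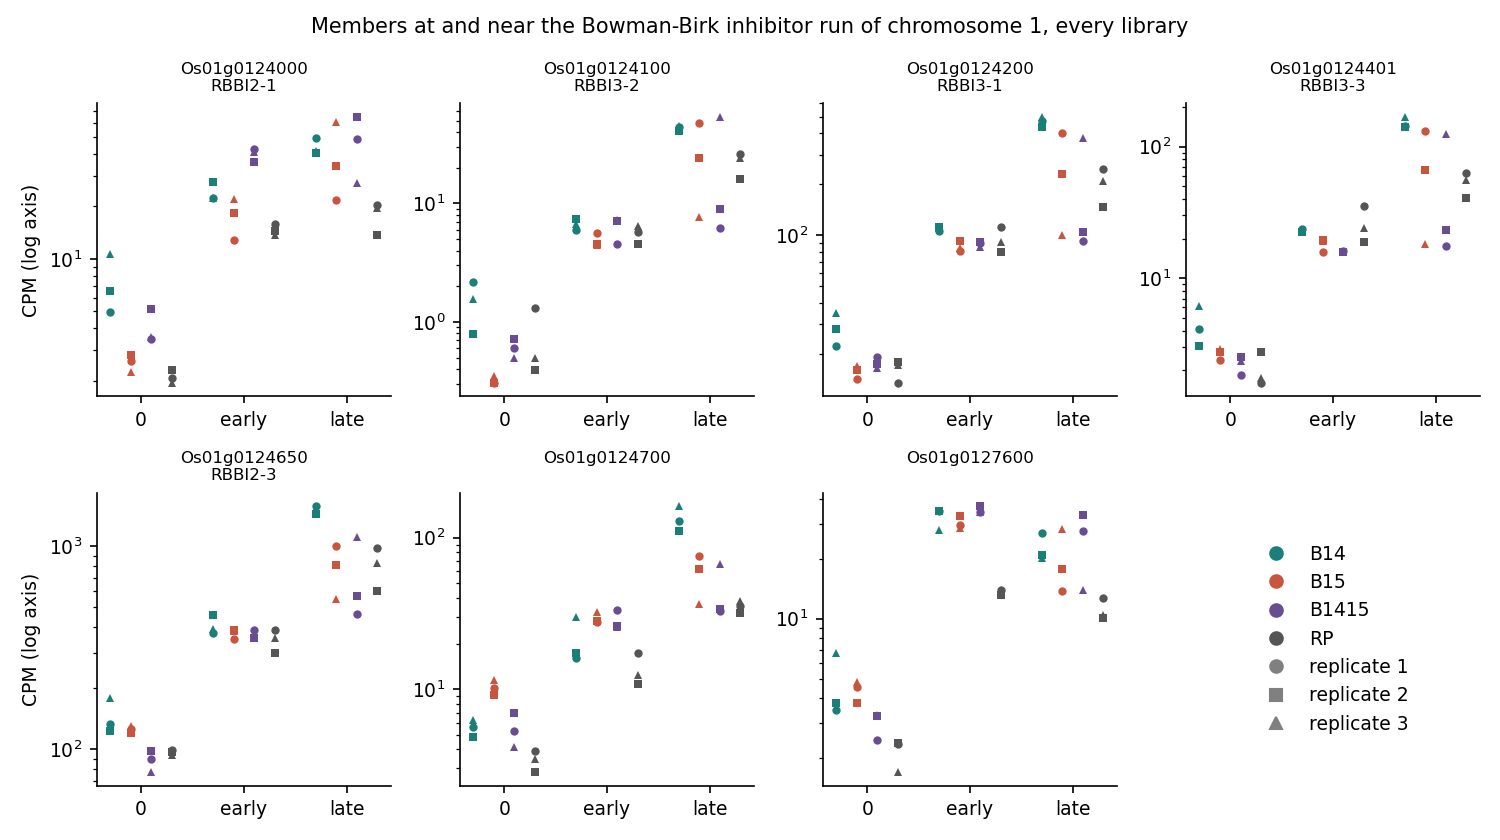
CPM (log axis, a separate scale in each panel) of the 6 members of the Bowman-Birk run of chromosome 1 and of Os01g0127600 at stage 0, early and late. Colours are lines and shapes are replicate numbers. RBBI3-1 reaches 435 to 501 CPM in B14_late against 147 to 246 CPM in RP_late, whereas Os01g0127600 is at 28.1 to 36.9 CPM early in the NILs and 13.2 to 13.9 CPM early in RP.

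Of the other lists, receptor kinases and lectins held 1 member among 23 annotated genes (OsJRL), uncharacterised proteins held 4 among 724, and seed storage proteins held 1 among 2. No member was among the 5 annotated WRKY transcription factors, the 3 genes of jasmonate synthesis, the 13 peroxidases, the 18 NB-LRR proteins, the 11 cytochrome P450 enzymes or the 15 transporters. The beta-glucanase precursor Os05g0375400 (OsPR2) was found by none of the list patterns and is described with the early stage. Among the other annotated members, OsbHLH035 (Os01g0159800), named as a basic helix-loop-helix transcription factor, had 45.3, 51.5 and 60.3 CPM in B14_late, 37.6, 25.2 and 23.1 CPM in B15_late, 20.9, 21.2 and 37.4 CPM in B1415_late, and 41.6, 32.6 and 45.2 CPM in RP_late. Os01g0268600, of the glycoside hydrolases of family 31, which release sugars from glycans, had 29.2, 33.6 and 34.6 CPM in B14_late against 23.4, 19.6 and 22.5 CPM in RP_late. With all libraries neither was called in a comparison of a NIL with RP. Without B1415_late-3 both were called lower in B1415_late, with log2 fold changes of -1.0035 for OsbHLH035 and -1.49 for Os01g0268600 by edgeR. Because the tables cover 1581 genes, these counts say how the annotated genes fell and not how the families behaved.

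The early stage lies between the 2 stages used by the rule, and the members had reached different parts of their late level by then. The early position is the log2 distance from stage 0 to the early stage divided by that from stage 0 to the late stage, on CPM plus 0.1. Its median over members was 0.436 in B14, 0.493 in B15, 0.627 in B1415 and 0.660 in RP. With B15_late-3 and B1415_late-3 left out it was 0.458 in B15 and 0.765 in B1415, since the late level is its denominator. In B14 that denominator spans the library division described at the end, whose part in the B14 positions was not tested. More than 0.5 of the change was reached by 61 members in B14, 79 in B15, 118 in B1415 and 118 in RP, and by 57 members in all 4 lines. Without those 2 libraries it was reached by 73 members in B15, 139 in B1415 and 56 in all 4 lines. At the early stage 42, 39, 69 and 90 members in B14, B15, B1415 and RP were at 4 times stage 0 or more, of which 25 were so in all 4 lines, beside 0.329%, 0.299%, 0.610% and 0.708% of all genes at 5 CPM or more late.

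In the tests of the early stage against stage 0, whose baseline the rule used, the counts are given as a description only. Calls were made by edgeR's quasi-likelihood test at an adjusted p (Benjamini-Hochberg) below 0.05 where the log2 fold change exceeded 1 in either direction. In B14 89 of 163 tested members were called (87 of them higher), beside 1.03% of all genes tested. The same test called 123 of 161 in B15 (3.05% of all genes), 143 of 163 in B1415 (4.34%) and 147 of 163 in RP (5.81%). The B14 count moved with single libraries, and was 121 without B14_0-3 but 33, 24, 19, 18 and 29 without B14_0-1, B14_0-2, B14_early-1, B14_early-2 and B14_early-3. The share of all genes called was then 4.94%, against 0.259%, 0.164%, 0.111%, 0.094% and 0.186% in the other 5 fits.

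**Figure D3:**
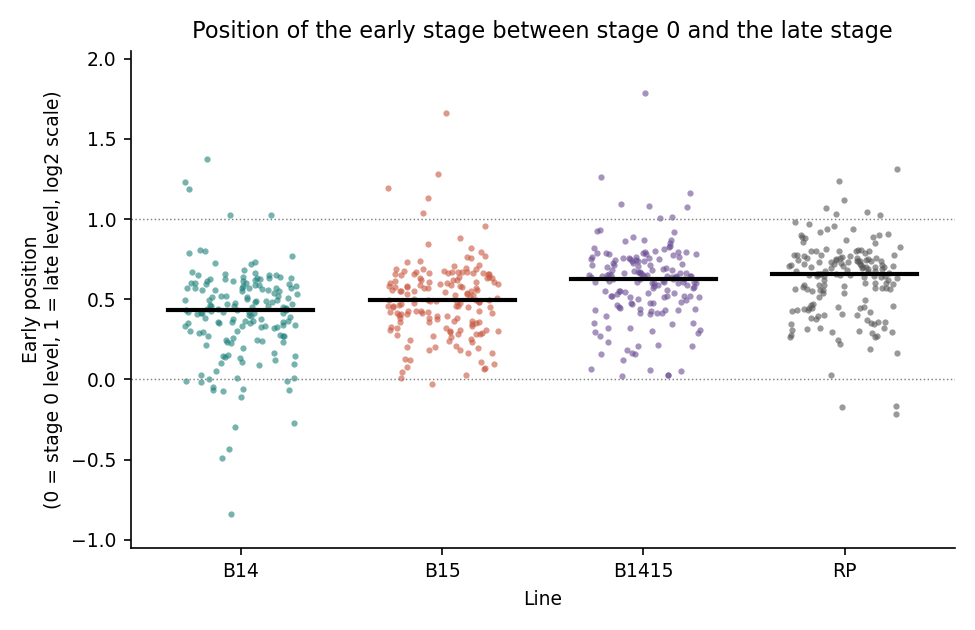
Early position of the 164 members in each line, where 0 is the stage 0 level and 1 the late level on the log2 scale. Each point is a member and each bar the median, which is 0.436 in B14, 0.493 in B15, 0.627 in B1415 and 0.660 in RP.

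The members with the highest early position were Os02g0719600, Os02g0121700, Os01g0127600 and Os07g0526600, the 4 members with an early mean above the late mean in every line, followed by Os04g0341500. Os02g0719600 had 65.5, 70.1 and 72.6 CPM in B14_early, 84.8, 72.9 and 62.2 CPM in B15_early, 87.0, 110 and 91.5 CPM in B1415_early, and 37.3, 38.6 and 37.5 CPM in RP_early. Its late levels were 32.0, 33.5 and 29.1 CPM in B14, 16.5, 24.3 and 35.5 CPM in B15, 32.4, 34.2 and 17.9 CPM in B1415, and 23.8, 13.5 and 21.7 CPM in RP. For this gene the name late-induced therefore describes the rule and not the time of its highest level. The lowest positions were those of Os05g0542500, Os06g0681200, OsJRL, Os01g0660200 and Os01g0615100, with mean positions of -0.22 to 0.03. Os05g0542500 was at 3.60, 4.96 and 5.09 CPM in B14_0, 1.20, 0.695 and 1.32 CPM in B14_early and 21.6, 24.4 and 26.4 CPM in B14_late, so that in B14 it was lower early than before infestation in every library.

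The comparison of each NIL with RP at the early stage asks whether these genes had reached different levels early in the NILs, and it uses only libraries that the rule did not. More members were called lower than higher in each NIL. The median log2 fold change over tested members was -0.30 in B14_early/RP_early, with 111 of 163 members below 0, -0.43 in B15_early/RP_early, with 119 of 162 below 0, and -0.45 in B1415_early/RP_early, with 120 of 163 below 0, while the medians of all genes tested were 0.04, 0.02 and 0.01. The 3 comparisons share the RP_early libraries, so that their counts are not independent of each other. All B15_early and B1415_early libraries, and B14_early-3, are parted from RP_early by the division of libraries described at the end. Its part in these calls was not tested. In B14 25 members were called lower and 2 higher (16.6% of those tested), beside 4.82% of all genes (1.22% higher and 3.6% lower). In B15 36 were called lower and 10 higher (28.4%), beside 13.7% of all genes (7.2% higher and 6.46% lower). In B1415 14 were called lower and 6 higher (12.3%), beside 4.36% of all genes (3.93% higher and 0.429% lower). Without B14_early-3, 20 members were called lower and 2 higher in B14, beside 4.27% of all genes, and without B15_early-1, 36 lower and 11 higher in B15, beside 17.3%.

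Among the 18 annotated members, 7 were called lower and 1 higher in B14_early, 7 lower and 2 higher in B15_early, and 6 lower and 3 higher in B1415_early. These counts are a description only. A gene has a description here because the study listed it as different, and its lists include genes that differed between the NILs and RP. OsPR2, a glucanase of the pathogenesis-related class that cleaves beta-glucans, had 109, 120 and 99.7 CPM in B14_early, 88.8, 92.0 and 75.5 CPM in B15_early, and 117, 96.3 and 109 CPM in B1415_early, against 317, 224 and 272 CPM in RP_early. No NIL library overlapped RP. Its log2 fold changes were -1.28 (SE 0.11, adjusted p = 1.5e-06) in B14, -1.56 (SE 0.11, adjusted p = 5.8e-09) in B15 and -1.37 (SE 0.10, adjusted p = 3.5e-08) in B1415 by edgeR. At stage 0 the 4 lines had lain together at 17.5 to 24.0 CPM.

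OsFbx352 (Os10g0127900), similar to an F-box protein, a class that selects proteins for ubiquitination, was likewise lower early. It had 44.1, 39.6 and 33.9 CPM in B14_early, 29.1, 25.6 and 22.9 CPM in B15_early, and 41.7, 31.4 and 33.8 CPM in B1415_early, against 85.7, 74.5 and 83.3 CPM in RP_early, with log2 fold changes of -1.02, -1.54 and -1.22. In RP this gene was as high early as late (74.4, 71.2 and 86.0 CPM late). LBD11-1 (Os11g0106900), of the LOB domain family of plant transcription factors, had 2.99, 3.41 and 2.21 CPM in B14_early, 1.95, 2.36 and 1.25 CPM in B15_early, and 3.06, 2.25 and 3.52 CPM in B1415_early, against 7.15, 6.59 and 5.45 CPM in RP_early. Os01g0266800, with a cystinosin/ERS1p repeat, was called lower in B14 and B15, with log2 fold changes of -1.09 and -1.42, and in B1415 its log2 fold change of -0.71 was below the size required.

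Os03g0826900 (OsEnS-58, a conserved hypothetical protein) had the lowest log2 fold change of all tested members in B15_early and B1415_early and the second lowest in B14_early, after Os03g0405400. It was almost undetected at stage 0, with at most 0.239 CPM in any library. Early it had 5.87, 5.43 and 3.65 CPM in B14, 2.25, 2.30 and 2.33 CPM in B15, and 10.2, 4.71 and 10.2 CPM in B1415, against 25.6, 18.7 and 24.3 CPM in RP. The log2 fold changes were -2.17 (SE 0.17, adjusted p = 4.9e-07), -3.20 (SE 0.17, adjusted p = 2.9e-10) and -1.50 (SE 0.19, adjusted p = 2.3e-05) by edgeR. By the late stage it had 204, 210 and 224 CPM in B14, 124, 104 and 24.9 CPM in B15, 26.3, 30.1 and 131 CPM in B1415, and 124, 81.1 and 128 CPM in RP. Thus OsEnS-58 was below RP early in every NIL, and at the late stage all B14 libraries were above all RP libraries, with a log2 fold change of 0.91 that did not reach the size required.

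A second hypothetical gene, Os02g0586900 (OsEnS-40), and a seed protein gene, Os01g0762500 (Glua1, a glutelin subunit), were also lower early in each NIL. OsEnS-40 had 1.09, 0.758 and 1.56 CPM in B14_early, 1.05, 0.920 and 0.657 CPM in B15_early, and 1.79, 0.909 and 0.844 CPM in B1415_early, against 2.82, 2.20 and 2.98 CPM in RP_early. Glua1 had 2.88, 2.21 and 2.09 CPM in B14_early, 1.12, 0.920 and 0.657 CPM in B15_early, and 3.63, 1.93 and 3.73 CPM in B1415_early, against 6.02, 7.60 and 8.04 CPM in RP_early. Glutelins are storage proteins of the endosperm, and Glua1 had at most 22.0 CPM in any library here.

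Members without annotation were lower early as well. Os10g0208500 had 60.7, 40.9 and 39.9 CPM in B14_early and 37.4, 34.0 and 26.0 CPM in B15_early, against 160, 148 and 171 CPM in RP_early, with log2 fold changes of -1.73 and -2.19. In B1415_early it had 188, 125 and 183 CPM, which overlapped RP, with a log2 fold change of 0.02. At stage 0 its log2 fold change was already -1.15 in B15, where it was called. It was -0.47 in B14_0 and 0.34 in B1415_0, neither called. Os03g0405400 was called lower in B14_early and B15_early, with log2 fold changes of -2.65 and -2.49, and in B1415_early it had -0.86. At stage 0 it had -2.36 in B15, called, and -0.32 in B14 and -0.52 in B1415, not called. What part of the early difference of these 2 genes was present before infestation was not tested. The log2 fold changes in B14, B15 and B1415 at the early stage were -1.77, -2.50 and -0.63 for Os09g0246500, -1.57, -2.56 and -0.81 for Os07g0190600, and -2.02, -2.20 and -1.02 for Os02g0702300. Whether B1415 differed from B14 and B15 in these genes was not tested. In B1415 the largest differences after that of OsEnS-58 were those of Os07g0147550 (-1.48 on the log2 scale), with 1.5, 1.28 and 1.12 CPM in B1415_early against 4.96, 2.37 and 3.48 CPM in RP_early, then OsPR2, Glua1 and Os06g0594400 (-1.23).

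Fewer members were higher early, and the Bowman-Birk gene Os01g0127600 was among them in each NIL. Its log2 fold change was 1.31 (SE 0.11, adjusted p = 1.0e-06) in B14, 1.29 (SE 0.11, adjusted p = 2.6e-08) in B15 and 1.36 (SE 0.09, adjusted p = 5.4e-09) in B1415 by edgeR, and all 9 early NIL libraries were above all 3 RP libraries. RBBI2-1 was higher in B1415_early with a log2 fold change of 1.41 (SE 0.09, adjusted p = 6.9e-09 by edgeR), and its log2 fold changes of 0.74 in B14 and 0.40 in B15 were below the size required. At stage 0 the log2 fold changes of Os01g0127600 were already 1.22 in B14, 1.24 in B15 and 0.50 in B1415. Of these, only the B15 difference was called. Those of RBBI2-1 at stage 0 were 1.90, 0.50 and 0.95, with no call. Of the 5 member inhibitors, 1 was called higher in B14_early, 1 in B15_early and 2 in B1415_early, and none lower. Os02g0719600 was higher in B15 and B1415, with log2 fold changes of 1.06 and 1.32, and had 0.91 in B14. At stage 0 this gene had 1.30 in B15 and 1.30 in B1415, both called, and 0.72 in B14. Os06g0681200 was higher in B14_early, with 7.67, 8.72 and 8.26 CPM against 1.88, 1.92 and 2.75 CPM in RP_early (log2 fold change 1.93, adjusted p = 4.7e-06 by edgeR), and Os11g0592000 was higher in B15_early, with 68.9, 82.2 and 90.2 CPM against 36.8, 30.3 and 36.5 CPM in RP_early (log2 fold change 1.34). The other large early differences upward were, on the log2 scale, those of Os03g0244333 (1.38), Os05g0355450 (1.24) and Os01g0124700 (1.24) in B15, and of Os04g0341500 (1.06) and Os04g0679500 (1.04) in B1415. Apart from Os04g0341500 these are the lower genes of neighbouring pairs described at the end. The call of Os04g0679500 was lost for its size without B1415_early-1 or without RP_early-2. At stage 0 Os06g0681200 had a log2 fold change of 2.30 in B14, not called, and Os11g0592000 had 1.07 in B15, called. For the members named here, what part of the early difference was present before infestation was not tested.

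**Figure D4:**
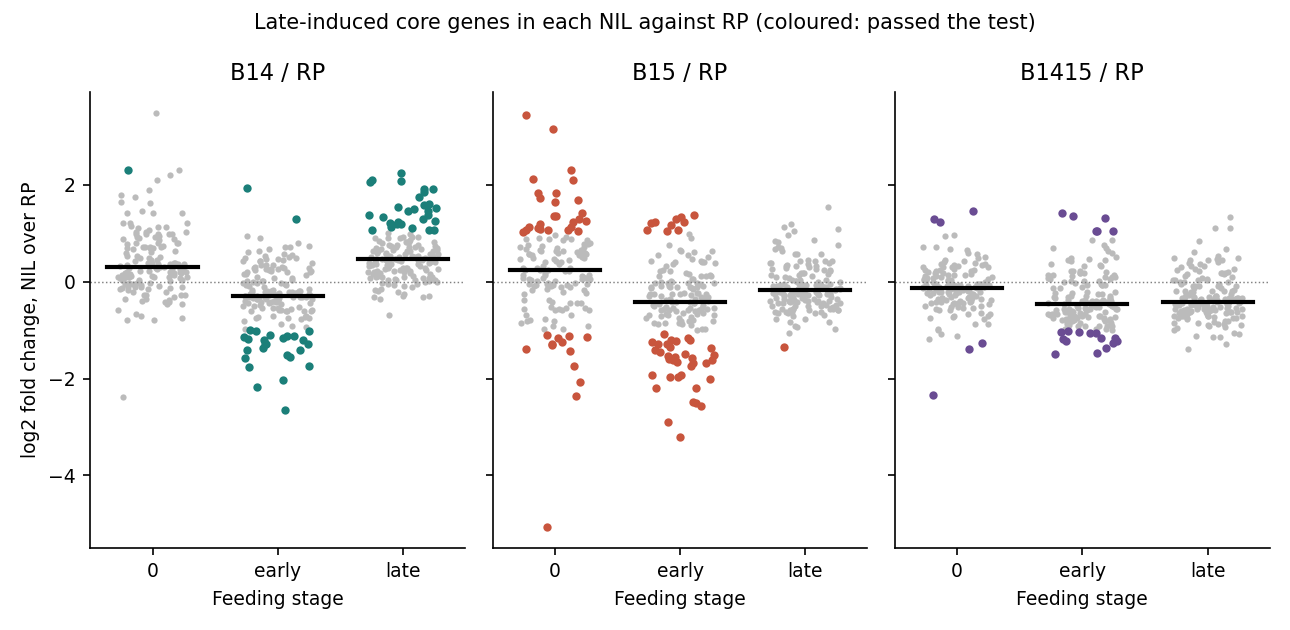
Log2 fold change of each member in B14, B15 and B1415 against RP at stage 0, early and late (edgeR, TMM scaling). Each point is a member, coloured points passed the test at the thresholds used throughout, and bars are medians over tested members. At stage 0 the medians are 0.30 in B14, 0.24 in B15 and -0.13 in B1415. At the early stage they are -0.30, -0.43 and -0.45. At the late stage, with all libraries, they are 0.47 in B14, -0.18 in B15 and -0.41 in B1415. Without the B15 and B1415 libraries that stand apart, 114 members pass the rule. Their late medians are then -0.0011 in B15 and -0.93 in B1415. Those of the other 50 members are 0.13 in B15 and -1.39 in B1415. Both sets were chosen by late levels, so these medians are a description.

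At stage 0 the same comparisons ask whether the members differed before infestation. These libraries served as the baseline of the rule, although the contrast of NIL with RP did not enter it. The median log2 fold change over tested members was 0.30 in B14_0/RP_0, with 114 of 153 above 0, beside 0.01 over all genes. It was 0.24 in B15_0/RP_0 and -0.13 in B1415_0/RP_0. In B14_0/RP_0 1 of 153 tested members was called, beside 0.0933% of all genes, and in B1415_0/RP_0 6 of 150 were called, 3 higher and 3 lower, beside 2.43%. In B15_0/RP_0 26 were called higher and 13 lower of 149 tested (26.2%), beside 24.3% of all genes (12.6% higher and 11.7% lower), a share of members close to that of the whole table. The photosynthesis gene Os03g0592500 averaged 649 CPM in B15_0 against 336 CPM in RP_0, and its part in these calls was not tested. The member called in B14_0 was Os12g0257600, with 10.3, 9.34 and 6.92 CPM in B14_0 against 1.59, 2.37 and 1.63 CPM in RP_0, a log2 fold change of 2.31. The count for B14_0 depended on the test and on single libraries. It was 19 (17 of them higher) without the library labelled B14_0-3, beside 1.04% of all genes, and 0 without any other single library. DESeq2 called 15 (14 higher), beside 0.577% of all genes, and at an unadjusted p below 0.05 edgeR gave 25 (24 higher), beside 1.96%.

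Named differences at stage 0 were of both signs. OsJRL was lower in B1415_0, with 28.0, 31.9 and 27.1 CPM against 76.8, 64.2 and 69.7 CPM in RP_0 (log2 fold change -1.26, SE 0.10, adjusted p = 1.9e-06 by edgeR). Glua1 was close to undetected in the NILs, at 0.131 to 0.271 CPM in B14_0, 0 to 0.0766 CPM in B15_0 and 0.0713 to 0.433 CPM in B1415_0, against 0.920 to 1.46 CPM in RP_0, and was called lower in B15 and B1415. On the log2 scale, Os10g0109600 was lower in B1415_0 (-1.38), and Os03g0405400 (-2.36) and Os05g0542500 (-2.06) were lower in B15_0. Higher in B15_0 were Os02g0730075 (log2 fold change 3.44), Os03g0244333 (3.16), Os07g0591700 (2.31) and the high-count member Os01g0256500 (1.72, SE 0.13, adjusted p = 2.8e-09 by edgeR). In B1415_0 the log2 fold changes of the members called higher were 1.46 for Os03g0244333, 1.30 for Os02g0719600 and 1.24 for Os07g0209201. Os03g0244333 and Os07g0209201 are lower genes of neighbouring pairs described at the end. Os02g0730075 lies next to Os02g0730050, the lower gene of the pair with Os02g0730000. It had a mean of 12.5 CPM late beside 662.5 CPM for Os02g0730000, whose log2 fold change in B15_0 was 0.87. As a percentage of its neighbour, Os03g0244333 was at 4.39%, 3.59% and 3.40% in B15_0 and 2.51%, 2.44% and 2.98% in B1415_0, against 1.35%, 1.01% and 0.949% in RP_0. Os07g0209201 was at 9.88%, 9.93% and 10.6% of its neighbour in B1415_0, against 4.62%, 3.85% and 3.98% in RP_0. The part of these percentages in the calls was not tested. In B1415_0 the call of Glua1 was lost without B1415_0-1 or RP_0-1, and that of Os03g0244333 without RP_0-2 or RP_0-3.

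At the late stage members were called higher than RP in B14, and none lower. The late libraries were used by the rule, but not this contrast. All B14_late libraries are also parted from all RP_late libraries by the division described at the end, so that this division and the line cannot be told apart here. The median log2 fold change in B14_late/RP_late was 0.47, with 146 of 164 members above 0, beside a median of -0.01 over all genes, and 29 members were called higher (17.7%), beside 3.98% of all genes (3.44% higher). In B14 the median had been 0.30 at stage 0, with 114 of 153 tested members above 0, and -0.30 at the early stage. What part of the late difference was present before infestation was not tested. The largest difference was that of Os06g0681200, with 76.9, 78.4 and 91.4 CPM in B14_late against 18.8, 18.1 and 14.1 CPM in RP_late (log2 fold change 2.25, SE 0.13, adjusted p = 5.5e-06 by edgeR). Os12g0147200 had 47.7, 46.2 and 52.8 CPM in B14_late against 11.2, 10.1 and 12.1 CPM in RP_late (log2 fold change 2.11, SE 0.12, adjusted p = 4.4e-06 by edgeR). Os04g0614500 had 43.3, 64.3 and 70.3 CPM in B14_late against 16.4, 8.11 and 15.7 CPM in RP_late (log2 fold change 2.09, SE 0.23, adjusted p = 0.00042 by edgeR). All of these groups were without overlap. In B14_0/RP_0 the log2 fold change was 2.30 for Os06g0681200, 1.22 for Os12g0147200 and -0.04 for Os04g0614500, and none of these was called. Os03g0592500 averaged 156 CPM in B14_late against 199 CPM in RP_late, and its part in these calls was not tested.

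Of the 18 annotated members, 6 were called higher in B14_late, a description for the same reason as at the early stage. Among the inhibitors, RBBI2-1 had a log2 fold change of 1.26 (SE 0.16, adjusted p = 0.00094), RBBI3-1 of 1.20 (SE 0.17, adjusted p = 0.0017) and RBBI3-3 of 1.47 (SE 0.15, adjusted p = 0.00030) by edgeR. The log2 fold change was 1.08 for OsJRL (SE 0.21, adjusted p = 0.0091 by edgeR), 1.91 for Os01g0124700 and 1.12 for OsEnS-40. Os01g0124700 is also the lower gene of such a pair, at 8.12%, 7.67% and 10.5% of its neighbour Os01g0124650 in B14_late, against 3.60%, 5.28% and 4.61% in RP_late. OsPR2, which was lower in B14_early, had 881, 821 and 836 CPM in B14_late against 893, 640 and 806 CPM in RP_late, with a log2 fold change of 0.09 (SE 0.14). OsFbx352 had 60.3, 68.4 and 61.5 CPM in B14_late against 74.4, 71.2 and 86.0 CPM in RP_late, with a log2 fold change of -0.31 that did not reach the size required.

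For B15 and B1415 the late comparison depends on the 2 libraries that stand apart. With all libraries, 1 of 164 members was called in B15_late/RP_late, beside 0.525% of all genes, and 0 of 164 in B1415_late/RP_late by edgeR, beside 0.033%. In B1415 7 members had an unadjusted p below 0.05 with the size required, beside 2.21% of all genes, and DESeq2 called 3, beside 0.47%. The member called in B15 was Os04g0634800, with 19.9, 14.7 and 9.60 CPM in B15_late against 38.8, 35.3 and 37.7 CPM in RP_late (log2 fold change -1.35, adjusted p = 0.020 by edgeR), and this call was lost without B15_late-2 or without any RP_late library. Without the library labelled B15_late-3, 10 members were called higher and 1 lower in B15, beside 0.936% of all genes. Without the library labelled B1415_late-3, 2 were called higher and 91 lower in B1415, beside 3.22%.

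The members themselves were chosen with those 2 libraries among the late means. A member that passed only through B1415_late-3 had to be low in B1415_late-1 and B1415_late-2, so the count of 91 is a description of members chosen in this way. The 114 members that pass the rule without both libraries were in turn chosen by the libraries that remain. Of them, 53 were called lower and 1 higher in B1415_late without its replicate 3, and 1 was called lower and 4 higher in B15_late without its replicate 3, also as a description. The lectin OsJRL shows the size of the dependence, with 89.8 and 104 CPM in B1415_late-1 and B1415_late-2 against 375 to 722 CPM in RP_late, and 1359 CPM in B1415_late-3. Whether the labels of these libraries are right was not tested, and they were kept as labelled.

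Members lay beside each other more than once. In the order of the locus identifiers, 22 pairs of members had at most 2 loci between them and 17 had none, and these pairs held 38 members. The log2 CPM of the 2 genes of a pair had a Pearson correlation of 0.831 to 0.993 over the 36 libraries. This is a description across libraries that share the feeding stages. All members were chosen for a rise between those stages, so the values do not set neighbours apart from other members. Members were found on all 12 chromosomes. Chromosome 1 held 23, or 0.471% of its genes with at least 1 count, chromosome 7 had 0.665%, and chromosome 8 had 0.132%, beside 0.483% overall.

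In 7 of the adjacent pairs, chosen after their values had been seen, one gene was at least 10 times lower in CPM than its neighbour, and calls between a NIL and RP were mostly in the lower gene. Over 61 tests of these pairs in the comparisons of a NIL with RP, which share the RP libraries of a stage, the lower gene was called 24 times and the higher gene 2 times. The lower gene was called in 7 of 7 pairs in B15_0/RP_0, where 24.3% of all genes were called, in 6 of 7 in B15_early/RP_early (13.7%), in 6 of 7 in B14_late/RP_late (3.98%), in 1 of 7 in B14_early/RP_early (4.82%), in 2 of 7 in B1415_early/RP_early (4.36%) and in 2 of 6 in B1415_0/RP_0 (2.43%). It was called in none in B14_0, B15_late and B1415_late. Nothing is read from these counts, because the values themselves led to the choice of these pairs. Os03g0244333, beside Os03g0244200, had 76.7, 60.9 and 84.8 CPM in B14_late against 19.7, 32.2 and 23.8 CPM in RP_late, whereas Os03g0244200 had a log2 fold change of 0.45 there. At stage 0 in B15 the 2 genes had log2 fold changes of 3.16 and 1.41. Os04g0679500 had log2 fold changes of 1.58 in B14_late and 1.05 in B15_early, with 0.28 and -0.47 for its neighbour Os04g0679400. Os05g0355450 had 1.07 in B14_late, with -0.20 for Os05g0355400.

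The level of the lower gene as a percentage of the higher one had a median over the 7 pairs of 3.90% to 5.16% in the B15 libraries and 3.40% to 5.36% in the B1415 libraries. In B14 it was 1.87% to 2.36% at stage 0, 2.37%, 1.80% and 4.57% in B14_early-1, B14_early-2 and B14_early-3, and 4.06% to 6.02% at the late stage. The 9 RP libraries lay between 1.56% and 2.85%. The 22 libraries of B15, B1415, B14_late and B14_early-3 thus did not overlap the other 14. This division follows neither line nor stage alone, and the labels name no batch. B14_late against B14_0, a contrast of the rule, lies wholly across it, so there the division and the feeding stage cannot be told apart. B14_late/RP_late and every comparison of B15 or B1415 with RP also lie wholly across the division. In those comparisons with RP the division and the line cannot be told apart, for all members and not only for these pairs. Os03g0405400 was an exception, since it was called lower than RP, in B14_early, B15_0 and B15_early. The part of this percentage in the calls of the lower genes was not tested, and without a known strand setting reads of 2 loci that overlap cannot be told apart.

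**Figure D5:**
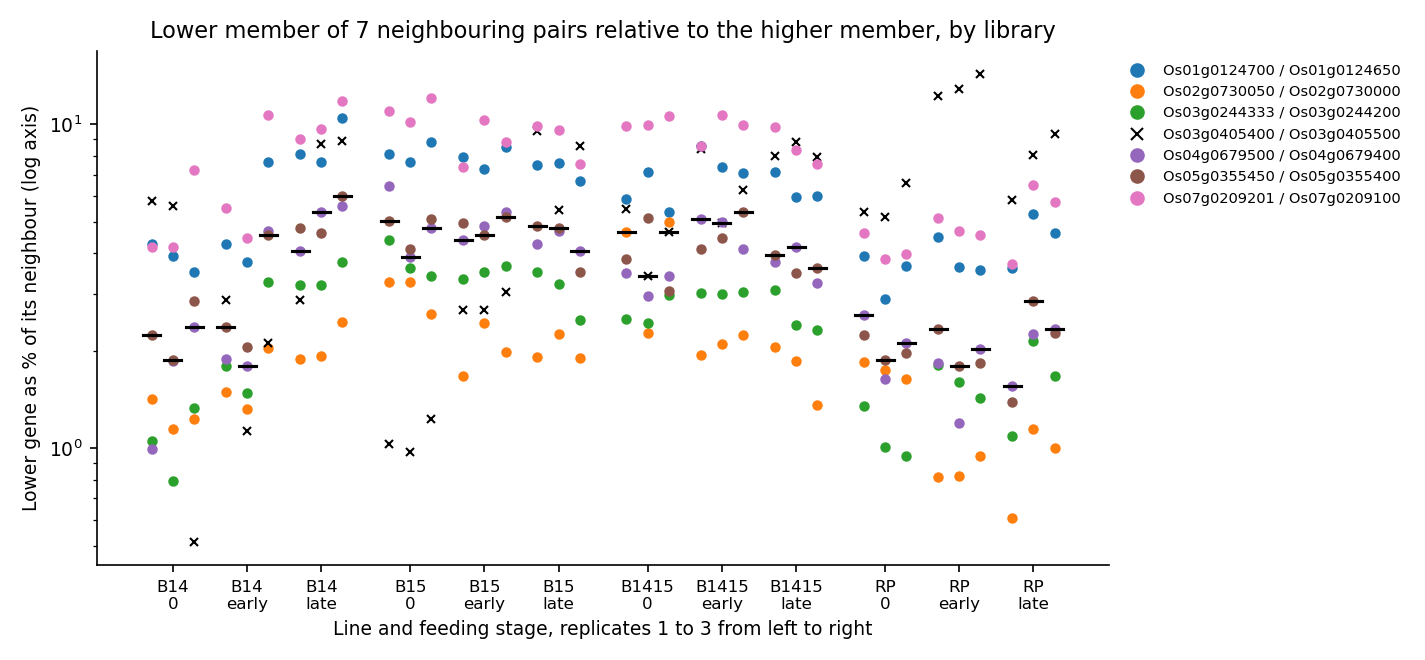
Level of the lower member of 7 neighbouring pairs as a percentage of the higher member (log axis), by library, with replicates 1 to 3 of each group from left to right. Colours are pairs, crosses are the pair of Os03g0405400, and bars are medians over the 7 pairs, which are 3.40% to 6.02% in B14_late, B15 and B1415 and 1.56% to 2.85% in RP.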

How the data were processed

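The authors deposited counts of reads per gene for 36 libraries of rice leaf sheath, as whole numbers without normalization. According to the methods, clean reads were aligned with Hisat2 (HISAT2 2.0.4 in the submitters' processing notes) to IRGSP-1.0 and counted with HTseq. The annotation release and the strand setting are not given in the sources used here. The labels and the methods differ in the library kit (rRNA depletion or poly-A selection), the sequencer and 1 infestation time (60 h or 6 h).

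CPM was computed from the column sum of each library. Each comparison was fitted on its 6 libraries in R 4.3.3 with edgeR 4.0.16, after filterByExpr with a minimum count of 10 and TMM scaling, by the quasi-likelihood test with Benjamini-Hochberg adjustment over all genes tested. Calls required an adjusted p under 0.05 and a log2 fold change larger than 1 in size. The SE of a log2 fold change is its size divided by the square root of F. The p-values measure the spread among 3 replicates of 15 seedlings, and total counts of 10601967 to 18692187 limit the genes of low level. The procedure was also run on simulated counts with known changes. No simulated library stood apart from its group, so that run does not bear on calls that depend on single libraries. Replicate numbers did not pair the libraries, since in 0 of 13 comparisons was every same-number correlation above 0.1 (range -0.191 to 0.210).

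The members and gene lists were chosen with earlier results of these data known. Genes were named by a rule: the 10 highest late levels, the 10 largest smallest ratios, the extremes of early position, the largest called differences in each direction of each comparison of a NIL with RP, up to 3 members of each list, and 3 genes on either side of the threshold. Annotated members outside it and the neighbouring pairs were added after their values had been seen. Alternatives were DESeq2 1.42.0, its size factors, no filter, an unadjusted p, the replicate block, other thresholds, and each library left out. No sequence or position of a member was taken from the RefSeq gene table, which matched 0 of 164 identifiers.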

Additional observations from a re-analysis of the deposited data

Results flagged for a closer look

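Os02g0586900 (OsEnS-40) moved in opposite directions against RP at the 2 feeding stages in B14. It was lower in B14_early (log2 fold change -1.20), with 1.09, 0.758 and 1.56 CPM against 2.82, 2.20 and 2.98 CPM in RP_early, and higher in B14_late (1.12), with 121, 112 and 128 CPM against 67.5, 37.8 and 57.0 CPM in RP_late. The B14 and RP libraries did not overlap at either stage, and the difference between the stages was not tested. All B14_late libraries are parted from RP_late by the library division described above, whereas of B14_early only B14_early-3 is parted from RP_early. The part of this division in the opposite signs was not tested.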

How the results depend on the processing

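The rule gave 279 genes at 3 times stage 0 and 82 at 6 times, 204 at a floor of 2 CPM and 144 at 10 CPM, 150 with TMM-scaled sizes, 125 with group medians, 118 without replicate 3 of both B15_late and B1415_late, and 117 to 177 with a single library left out. Members called in B14_0/RP_0 numbered 25 at an unadjusted p, 2 without the filter, 0 with the replicate block, 15 by DESeq2 and 0 to 19 with a library left out. In B1415_0/RP_0 there were 10 at an unadjusted p and 5 to 9 with a library left out. B15_late/RP_late gave 4 at an unadjusted p, 3 without the filter, 3 with the replicate block, 11 without the 2 libraries and 0 to 11 with a library left out. B1415_late/RP_late gave 7 at an unadjusted p, 1 without the filter, 3 by DESeq2, 93 without the 2 libraries and 0 to 93 with a library left out. B14_early/B14_0 gave 29 with the replicate block and 18 to 121 with a library left out. Besides the 3 comparisons named with it, the replicate block moved no count of calls by more than 1.5 times. The early comparisons with RP gave 22 to 30 in B14, 45 to 47 in B15 and 14 to 30 in B1415, and B14_late/RP_late gave 22 to 36. No named difference changed direction. The causes of these changes were not tested. The counts of calls show only how far they moved with the setting. Where no share of all genes is given above for a setting, nothing about the members is read from its count.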
